A study of Arabidopsis thaliana with 24 samples.

Results

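AT5G52670, AT5G52680 and AT5G52760 are 3 genes on chromosome 5 of Arabidopsis thaliana that are described as coding for proteins with a heavy-metal-associated domain. They were followed in root RNA read on ATH1 arrays, 1-colour microarrays on which a set of short probes reads each gene. They are 3 of the 13355 genes that could be named on the array, and each was read by 1 probe set, so no choice between probe sets was needed. The genes were chosen by measured values: AT5G52760 was already known to be among the genes most raised by salt in wild type at 1 h. Which values brought in AT5G52670 and AT5G52680 is not recorded, and the genotype comparison at 3 h may have been among them. For that reason the wild-type salt responses, every 3 h comparison and the comparisons between genotypes without salt and at 1 h are given as descriptions with no test. Tests are given for the mutant under salt at 1 h and 6 h and for the genotypes at 6 h. For AT5G52670 and AT5G52680 it is not recorded whether these values also had a part in the choice. If they had, the adjusted p-values of these genes are too low. The mutant tests also share their control arrays with the salt response of the mutant at 3 h.

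The mutant was bzip1/bzip53, which carries lesions in the genes of a pair of bZIP transcription factors, and it was set against its background, Col-0 wild type (WT). Roots of both genotypes came from hydroponic culture. They were exposed to 150 mM NaCl and sampled at 1 h, 3 h and 6 h, or sampled with no salt added (control), giving 8 groups of 3 arrays. The labels give an age of 6 weeks and also speak of seedling roots, name no single allele or line of the double mutant, and title each array a biological replicate without saying how plants were divided between arrays. Adjusted p-values therefore measure the spread between these arrays, and in RNA of whole roots a change in the number of cells of a type cannot be told apart from a change in RNA per cell.

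The heavy-metal-associated domain is a small fold that in many proteins binds a metal ion such as copper or zinc through a pair of cysteines. It occurs in copper chaperones, in metal-pumping P-type ATPases and in a large family of small plant proteins, many of which also carry a site for attachment of an isoprenyl lipid. Members of that plant family have been linked to metal handling and to responses to drought and pathogens, but no role of its own was given for any of the 3 genes in the annotation used here. The proteins were not inspected here, so the domain itself was not checked.

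In the order of genes of the RefSeq annotation of assembly TAIR10.1, AT5G52670 and AT5G52680 stand next to each other, and AT5G52760 lies beyond them with 7 genes in between. The word neighbouring thus holds strictly for the first pair only. Without salt the 3 genes differed in where they stood against the array's background, taken here as a log2 level under 5. AT5G52670 lay above it on every array and AT5G52680 below it on every control array of both genotypes. AT5G52760 was spread widely around it. Since each probe set binds with its own strength, no level is set against that of another gene.

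The arrays were of similar brightness, with medians from 6.53 to 6.67, over 22746 probe sets tested. BZIP53, a targeted gene, stood at 8.67 to 9.24 on the 12 mutant arrays and at 10.37 to 11.12 on the 12 WT arrays, without overlap. No probe set was named as bZIP1. Some arrays stood apart from the others of their group. On array 3 of WT control 370 probe sets lay more than 1 (log2) above both other arrays, on array 3 of WT at 1 h 232, on array 1 of mutant control 215, on array 3 of WT at 6 h 101 and on array 3 of the mutant at 1 h 99. On array 2 of the mutant at 1 h 219 lay more than 1 below both others. Root hair markers, used to check the tissue, were present, with means over all arrays of 7.05 for EXPA7 and 6.14 for EXPA18, the 2 named genes of 10 cell type markers listed. No shoot marker was among those named. At 6 h EXPA7 fell by 1.95 in the mutant (adjusted p = 2.2e-06) and fell by 1.89 in WT (adjusted p = 3.46e-06), and EXPA18 fell by 2.02 in the mutant (adjusted p = 3.05e-08) and fell by 2.04 in WT (adjusted p = 3.04e-08). Their part in the members' levels was not tested.

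AT5G52760 had the widest range of the 3 genes, from near background without salt to a log2 level of over 10 at 6 h in both genotypes. In the mutant it stood at 7.21, 5.13 and 4.48 in the control, at 9.20, 8.52 and 10.12 after 1 h, at 11.18, 11.38 and 10.43 after 3 h and at 11.58, 11.45 and 10.93 after 6 h (log2, arrays 1 to 3). In WT it stood at 4.53, 4.76 and 7.72 in the control, at 9.03, 8.59 and 10.41 after 1 h, at 8.42, 9.88 and 10.08 after 3 h and at 10.69, 10.12 and 11.18 after 6 h. Every salt array lay above every control array of its genotype. A single control array in each genotype, array 1 of the mutant and array 3 of WT, was more than 2 above the other control arrays, and these were arrays that stood apart over many probe sets.

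The group means of AT5G52760 were already far above the control at 1 h, and their later steps were of different size in the 2 genotypes. Each step had an SE of 0.745, and neither the steps nor their difference between the genotypes is given a test. They were 5.61 ± 1.43, 9.28 ± 0.80, 11.00 ± 0.50 and 11.32 ± 0.34 in the mutant for control, 1 h, 3 h and 6 h, and 5.67 ± 1.78, 9.34 ± 0.95, 9.46 ± 0.91 and 10.66 ± 0.53 in WT (log2, SD, n = 3). At 1 h the mutant minus WT difference was -0.063. At 3 h the mutant had moved on by a further 1.72, whereas the WT mean had moved by 0.12. Between 3 h and 6 h the mutant mean moved by 0.32 and the WT mean by 1.20, the step at which the 3 WT arrays of 6 h all lay above those of 3 h.

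In the mutant, AT5G52760 was higher than in its control by 3.67 at 1 h (SE 0.745, adjusted p = 0.00107) and by 5.71 at 6 h (adjusted p = 2.32e-06). The 95% intervals of these log2 differences ran from 2.12 to 5.23 and from 4.16 to 7.27. Both comparisons use the same 3 mutant control arrays. Without array 1 of mutant control the differences were 4.47 and 6.52, with both calls kept. The difference in WT was 3.68 at 1 h, 3.80 at 3 h and 4.99 at 6 h, and without array 3 of WT control it was 4.70, 4.82 and 6.02. A single control array thus moved these values by more than 1.5-fold. The other control arrays stood at 4.53 and 4.76 in WT and at 5.13 and 4.48 in the mutant, near or under 5. None of these differences therefore has an exact size as a fold.

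AT5G52680 was near background without salt and still low at 1 h. Its levels in the mutant were 4.16, 3.90 and 3.99 in the control, 4.34, 4.42 and 5.91 after 1 h, 8.15, 8.06 and 7.04 after 3 h and 6.27, 7.21 and 6.55 after 6 h. In WT they were 4.14, 4.13 and 4.36 in the control, 5.50, 4.51 and 5.85 after 1 h, 4.67, 5.18 and 6.45 after 3 h and 6.15, 5.40 and 7.10 after 6 h. On the control arrays it was nearly level, and on the salt arrays it was higher than on every control array of the same genotype, although at 1 h 2 of the 3 mutant arrays were still under 5. Array 3 was the highest of its WT group at every time.

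The highest group mean of AT5G52680 lay at 3 h in the mutant and at 6 h, the last time sampled, in WT. Group means in the mutant were 4.02 ± 0.14, 4.89 ± 0.89, 7.75 ± 0.62 and 6.67 ± 0.48 for control, 1 h, 3 h and 6 h, and in WT 4.21 ± 0.13, 5.29 ± 0.70, 5.43 ± 0.92 and 6.22 ± 0.85 (log2, SD, n = 3). From 1 h to 3 h the mutant mean moved up by 2.86 and the WT mean by 0.15. From 3 h to 6 h the mutant mean came down by 1.08 and the WT mean moved up by 0.78, each with overlap between the arrays. No test is given for these steps or for a difference in timing between the genotypes.

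Against its control, AT5G52680 in the mutant was higher by 2.66 at 6 h (SE 0.487, adjusted p = 0.000124, 95% interval 1.64 to 3.67). At 1 h the difference of 0.87 did not pass the test (adjusted p = 0.211, 95% interval -0.14 to 1.89). In the mutant at 3 h, where no test is given, the difference was 3.73. The WT differences were 1.08, 1.22 and 2.01 at 1 h, 3 h and 6 h. Since the control level lay under 5, none of these differences has an exact size as a fold.

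AT5G52670 lay above 5 on every array of every group. In the mutant it stood at 7.33, 6.49 and 6.06 in the control, at 7.07, 5.99 and 8.17 after 1 h, at 8.93, 8.96 and 8.14 after 3 h and at 7.79, 7.83 and 7.44 after 6 h. In WT it stood at 5.24, 5.56 and 6.60 in the control, at 6.89, 6.46 and 7.89 after 1 h, at 6.26, 6.60 and 7.49 after 3 h and at 7.05, 6.53 and 7.88 after 6 h. In the mutant, salt and control arrays overlapped at 1 h and not at 3 h or 6 h. In WT they overlapped at every time, since array 3 of the WT control was as high as some of the salt arrays. Each WT salt array lay above the WT control array of the same number, by 0.89 to 1.81 over 9 differences, and in the mutant 7 of 9 such differences were above 0 (-0.50 to 2.47). The labels state no pairing by number. The measure given below paired only WT at 6 h with its control, and WT at 1 h fell just short of its cut. The differences also reuse the 3 control arrays of each genotype, so they are descriptions.

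AT5G52670 had its highest mean, 8.68 ± 0.47, in the mutant at 3 h, where the lowest array still overlapped the highest mutant array of 1 h. The other mutant means were 6.63 ± 0.65 in the control, 7.08 ± 1.09 at 1 h and 7.69 ± 0.21 at 6 h. In WT the means were 5.80 ± 0.71, 7.08 ± 0.73, 6.78 ± 0.63 and 7.15 ± 0.68 for control, 1 h, 3 h and 6 h (log2, SD, n = 3). The WT means under salt thus stayed within 0.37 of each other, less than their SD, while the mutant had its highest mean at 3 h and a mean 0.99 lower at 6 h, without overlap.

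Neither tested salt difference of AT5G52670 passed the threshold. In the mutant it was 0.45 at 1 h (SE 0.506, adjusted p = 0.572, 95% interval -0.61 to 1.51) and 1.06 at 6 h (adjusted p = 0.0941, 95% interval 0.0014 to 2.12). The 1 h value depended on arrays that lay far apart: it was -0.095 without array 3 of the mutant at 1 h, which lay 1.09 above the group mean, and 0.99 without array 2, whose deviation was -1.08. Without array 1 of mutant control the 6 h value was 1.41 and passed (adjusted p = 0.0425). The difference in the mutant at 3 h was 2.05, a 4.14-fold higher level, and the WT differences were 1.28, 0.99 and 1.35 at 1 h, 3 h and 6 h.

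**Figure D1:**
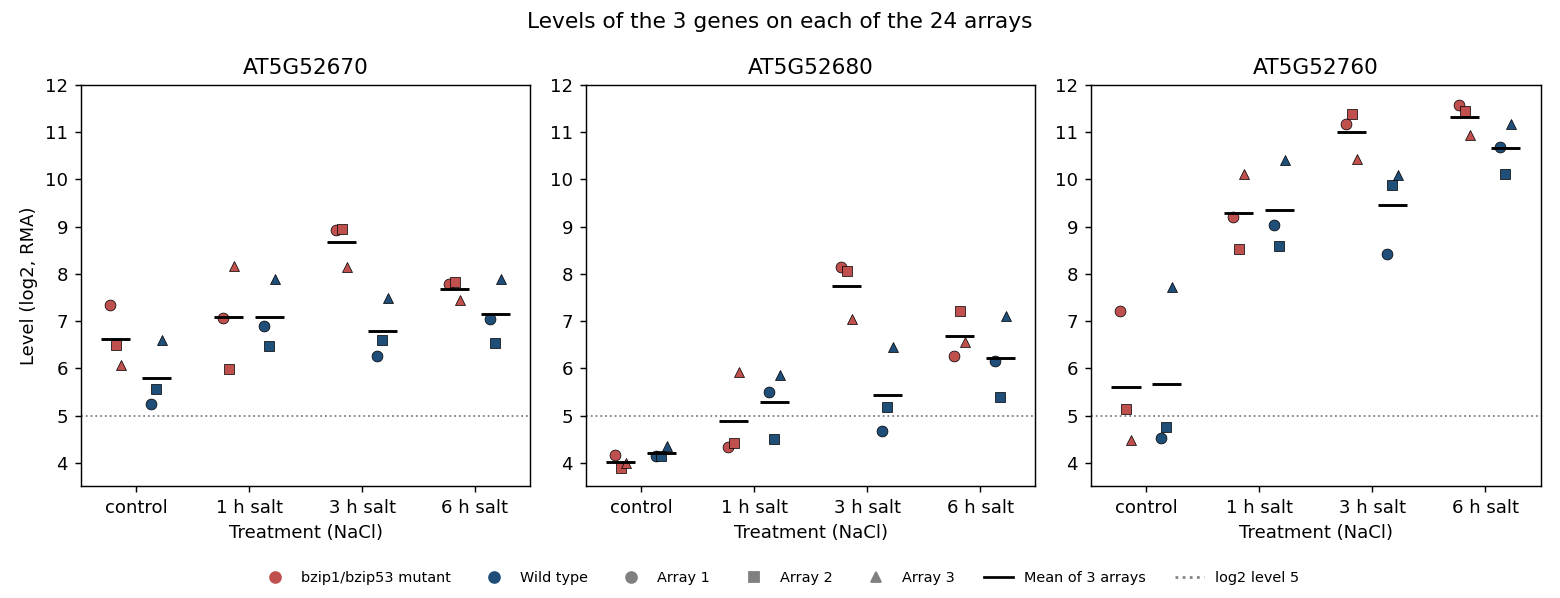
Log2 level (RMA) of AT5G52670, AT5G52680 and AT5G52760 in mutant and WT roots without salt (control) and at 1 h, 3 h and 6 h of NaCl treatment; each point is 1 array (shape gives its number), each bar is the mean of 3 arrays and the dotted line marks the log2 level of 5. At 3 h the 3 mutant arrays lie above the 3 WT arrays for each gene, and at 6 h the genotypes overlap for each gene.

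The level order over the 8 groups showed where neighbouring means were closer than their spread. For AT5G52670 the order ran from the mutant at 3 h and the mutant at 6 h, which did not overlap, through WT at 6 h, WT at 1 h, the mutant at 1 h, WT at 3 h and the mutant control, with gaps within the larger SD from the mutant at 6 h down to the mutant control. The last step, from the mutant control to the WT control, was 0.83, beyond the larger SD of 0.71, although arrays overlapped. For AT5G52680 the mutant at 3 h came first, 1.08 above the mutant at 6 h, with overlap between the arrays. WT at 6 h, WT at 3 h, WT at 1 h and the mutant at 1 h followed without gaps beyond their spread, and both controls lay at the bottom. For AT5G52760 the order was the mutant at 6 h, the mutant at 3 h, WT at 6 h, WT at 3 h, WT at 1 h, the mutant at 1 h and the controls. Its gap of 1.20 between WT at 6 h and WT at 3 h and its gap of 3.61 between the mutant at 1 h and the WT control were without overlap.

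Set against the array as a whole, the 3 genes were counted as follows. In the mutant at 6 h 2 of the 3, AT5G52680 and AT5G52760, were called higher than in the control, where 18.1% of all probe sets were, and at 1 h 1 of the 3, AT5G52760, where 10.6% were. Salt arrays of the mutant lay above all its control arrays for 2 of the 3 genes at 1 h (16.6% of all probe sets), for 3 at 3 h (20%) and for 3 at 6 h (19.8%). In WT this held for 2 of the 3 at 1 h (13.7%), at 3 h (16.1%) and at 6 h (18.3%), and AT5G52670 was the exception each time. AT5G52760 was already known for its rise in WT, and the 3 h values may have brought in the other genes. Nothing is therefore read from the WT and 3 h counts. The mutant counts at 1 h and 6 h carry the doubt on the choice given at the start.

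**Figure D2:**
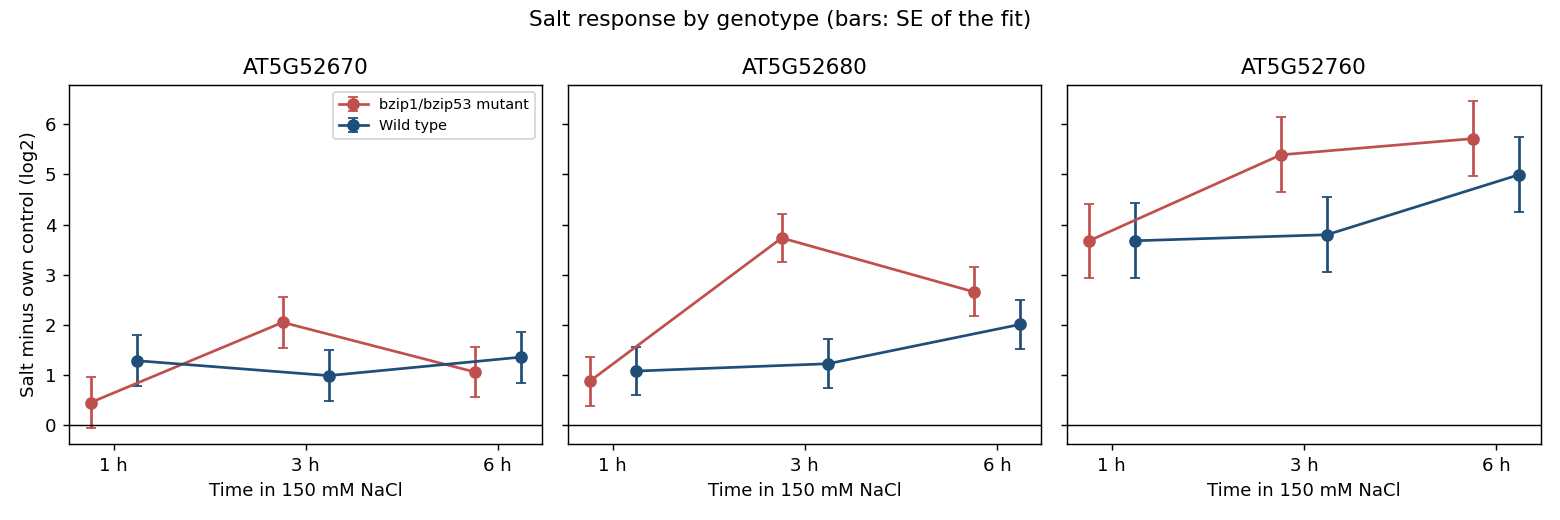
Log2 difference of salt against control for each gene at 1 h, 3 h and 6 h in mutant and WT roots, with error bars of 1 SE of the limma fit. The mutant differences at 3 h are 2.05 for AT5G52670, 3.73 for AT5G52680 and 5.39 for AT5G52760, above the WT differences of 0.99, 1.22 and 3.80.

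At 3 h, and at no other of the 4 conditions, mutant and WT arrays did not overlap for any of the 3 genes. AT5G52680 was 2.32 higher in the mutant than in WT at 3 h, AT5G52670 was 1.89 higher and AT5G52760 was 1.53 higher (SE 0.487, 0.506 and 0.745). For each of the 3 genes the lowest mutant array lay above the highest WT array, which was so for 15% of all probe sets. These 3 h values may have chosen the genes and carry no test. Leaving out any 1 array, or changing the scaling or the fit, left them between 1.93 and 2.83 for AT5G52680, between 1.63 and 2.24 for AT5G52670 and between 1.01 and 1.84 for AT5G52760.

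At 6 h limma called none of the 3 genes different between the genotypes, none had an unadjusted p under 0.05, and mutant and WT arrays overlapped for all 3. Over the array 0.589% of probe sets were called at 6 h, and 6.03% had every mutant array above every WT array. AT5G52670 was 0.53 higher in the mutant than in WT (adjusted p = 0.701, 95% interval -0.52 to 1.59). AT5G52680 was 0.46 higher (adjusted p = 0.741, 95% interval -0.56 to 1.47). AT5G52760 was 0.66 higher (adjusted p = 0.758, 95% interval -0.90 to 2.22). These intervals use a spread pooled over all 8 groups, and the spread was not equal. For AT5G52760 the SD was 1.43 and 1.78 in the controls, against 0.34 and 0.53 at 6 h (mutant and WT). For AT5G52680 it was 0.14 and 0.13 in the controls, against 0.48 and 0.85 at 6 h. The upper bound of the interval lies above the 3 h difference for AT5G52760 and below it for AT5G52670 and AT5G52680. That is no comparison of the 2 times, since the 3 h differences have their own SE and may have chosen the genes. The difference between 3 h and 6 h was not itself tested.

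Without salt the mutant was 0.83 higher than WT for AT5G52670 and differed from it by -0.19 for AT5G52680 and -0.060 for AT5G52760, with overlap in each case. At 1 h the differences were -0.0052, -0.40 and -0.063 for AT5G52670, AT5G52680 and AT5G52760. Taking the control levels into account, the mutant's response at 3 h exceeded that of WT by 2.51 for AT5G52680 (SE 0.689), by 1.06 for AT5G52670 (SE 0.716) and by 1.59 for AT5G52760 (SE 1.05). For AT5G52670 this is less than the 3 h difference of levels by the 0.83 that separates the controls. The value of AT5G52760 depended most on the control arrays that stood apart, at 0.57 without array 3 of WT control and 2.40 without array 1 of mutant control.

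The 3 genes also varied together between arrays of the same group. In 6 of the 8 groups 1 array was the highest for all 3 genes, namely array 3 in each of the 4 WT groups, array 1 of the mutant control and array 3 of the mutant at 1 h. Array 3 of WT lay above its group mean by 0.71 to 0.81 for AT5G52670, by 0.15 to 1.02 for AT5G52680 and by 0.51 to 2.05 for AT5G52760. Several of these arrays also stood apart over many other probe sets, and the part of that in the members' levels was not tested.

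Over all 24 arrays Pearson's r was 0.863 between AT5G52670 and AT5G52680, 0.786 between AT5G52670 and AT5G52760 and 0.829 between AT5G52680 and AT5G52760. After each group's mean was taken away, r was 0.799, 0.869 and 0.559 for the same pairs. The points share arrays and groups, so these values are descriptions. The lower value for AT5G52680 and AT5G52760 goes with a control level of AT5G52680 that stayed near background on the very arrays on which AT5G52760 was raised.

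**Figure D3:**
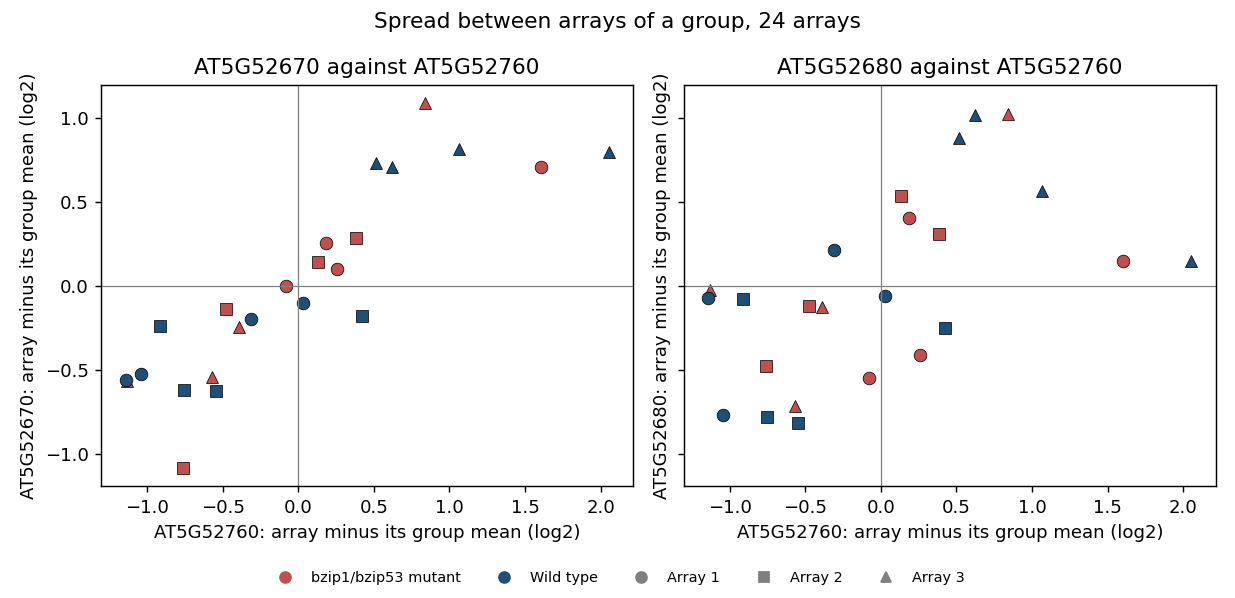
Deviation of each of the 24 arrays from its group mean (log2), for AT5G52670 (left, vertical axis) and AT5G52680 (right, vertical axis) against AT5G52760 (horizontal axes); colour gives the genotype and shape the array number. The WT arrays numbered 3 all lie in the upper right of both panels, up to 2.05 above the mean for AT5G52760.

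Genes around the 3 members were read next. The stretch from AT5G52640 to AT5G52800 holds 19 annotated genes, of which 14 had a named probe set, the 3 members and 11 others. At 6 h 4 of the 11 were called higher, 1 lower and 6 not in the mutant, and 4 higher, 2 lower and 5 not in WT, where 47.9% of all probe sets in the mutant and 47.5% in WT were called in either direction. The median difference of the 11 was 0.061 in the mutant and -0.12 in WT, beside -0.083 and -0.077 for all probe sets of the same comparisons. AT5G52740, AT5G52770, AT5G52780 and AT5G52800 lay under 5 in every group.

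The share called higher alone was 18.1% of all probe sets in the mutant and 16.4% in WT, beside the 4 of 11 in each, and no test of position was made. AT5G52750, directly before AT5G52760, was higher at 6 h by 4.33 in the mutant (SE 0.712, adjusted p = 3.74e-05) and by 4.11 in WT (adjusted p = 7.07e-05). AT5G52690, directly after AT5G52680, was higher by 1.82 in the mutant (adjusted p = 0.000251) and by 1.28 in WT (adjusted p = 0.00536). AT5G52720 was higher by 1.76 in the mutant (adjusted p = 0.000337) and by 1.02 in WT (adjusted p = 0.0223), and AT5G52660, directly before AT5G52670, by 0.72 in the mutant (adjusted p = 9.01e-06) and 0.46 in WT (adjusted p = 0.00109). The WT calls of AT5G52690 and AT5G52720 were lost without array 3 of WT at 6 h, at differences of 0.89 and 0.60, and that of AT5G52720 also without array 1 or 2 of WT control, at 0.92 and 0.89. Control means lay under 5 for AT5G52690 (4.18 in the mutant, 4.20 in WT) and AT5G52720 (4.06 and 4.18). The differences of these 2 genes thus have no exact size as a fold.

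Not every gene of the stretch moved this way. AT5G52790 was lower at 6 h by -1.83 in the mutant (adjusted p = 4.02e-08) and by -1.72 in WT (adjusted p = 1.08e-07). AT5G52650 was lower in WT by -0.25 (adjusted p = 0.0297), a call lost under both other scalings and without array 1 or 2 of WT control or array 2 or 3 of WT at 6 h, and stood at -0.21 in the mutant (adjusted p = 0.0696). AT5G52710, between AT5G52690 and AT5G52720, had differences of 0.11 in the mutant (adjusted p = 0.814) and -0.28 in WT (adjusted p = 0.519). The genotype difference at 3 h (mutant minus WT) was 1.53 for AT5G52750, 1.34 for AT5G52690, 0.82 for AT5G52720 and 0.41 for AT5G52660. Their SEs were 0.712, 0.357, 0.356 and 0.105. It was also 0.66 for AT5G52710 (SE 0.323), and -0.30 for AT5G52790 (SE 0.175) and -0.18 for AT5G52650 (SE 0.091). Arrays of the genotypes overlapped for AT5G52720, AT5G52710 and AT5G52790. No test is given for these 3 h values.

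**Figure D4:**
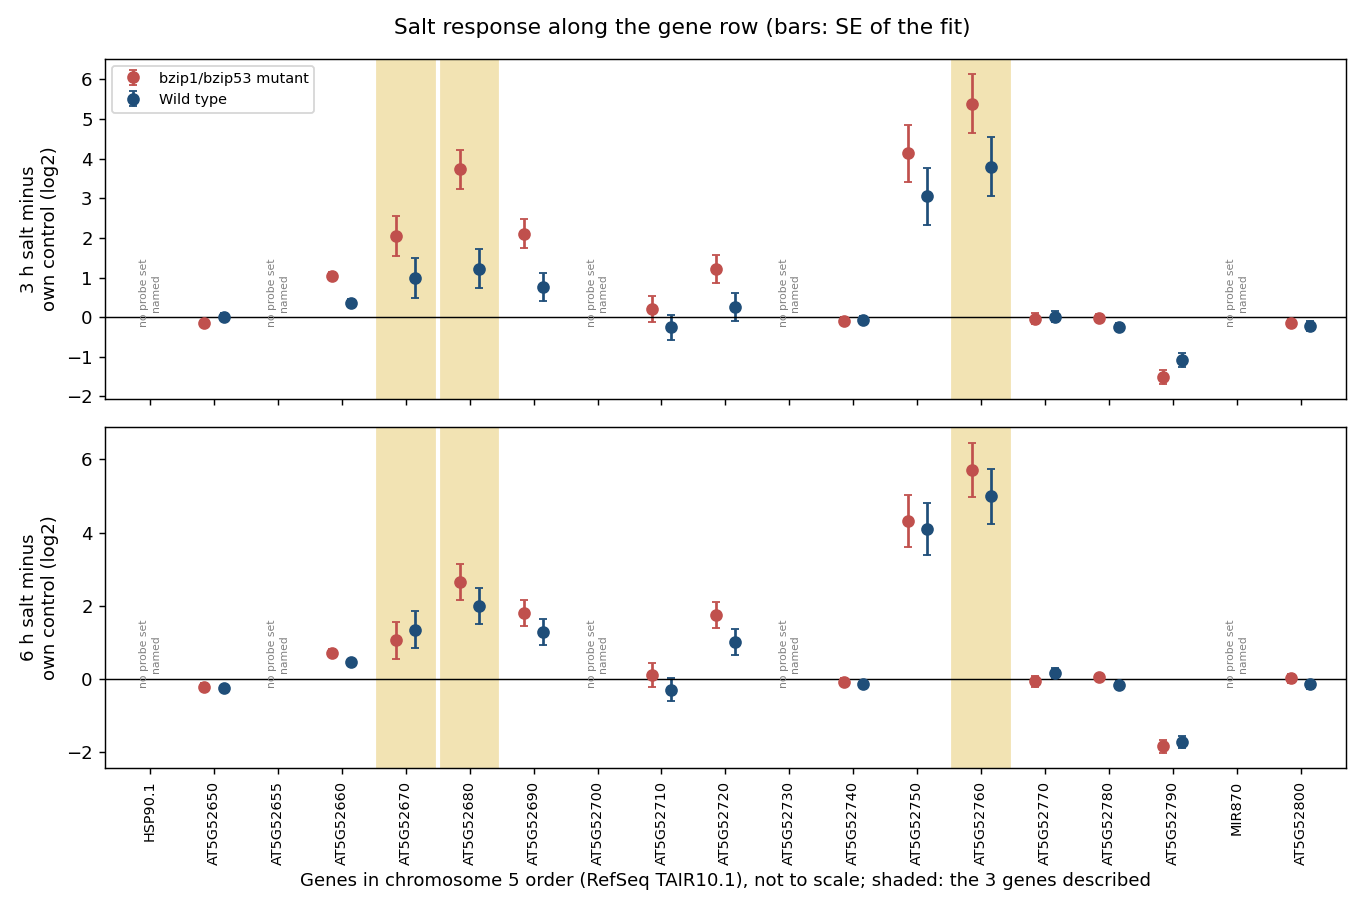
Genes of the stretch around AT5G52670, AT5G52680 and AT5G52760 in annotated order (horizontal axis, not to scale), with the log2 difference of salt against control at 3 h (upper panel) and 6 h (lower panel) in mutant and WT roots and error bars of 1 SE; the 3 genes are shaded. At 6 h AT5G52750 and AT5G52760 reach 4.33 and 5.71 in the mutant and 4.11 and 4.99 in WT, and AT5G52790 is lower in both.

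Among the 13355 genes that could be named, those whose levels over the 24 arrays were most like those of the members were found by Pearson's r. For AT5G52760 the nearest was AT5G52750 (r = 0.992), then AT3G59080, AT2G18210, AT3G28580 and AT5G35735 (0.982 to 0.983). For AT5G52680 it was AT5G52690 (0.964), then AT1G15170, AT4G19720, AT1G67000 and AT2G32150 (0.920 to 0.939). For AT5G52670 it was ACA.l (AT1G13210, 0.926), then AT4G28085, AT5G41810, AT1G05575 and AT5G25170 (0.900 to 0.925). Thus for 2 of the 3 members the most similar profile among the named genes belonged to the gene next to it. After group means were taken away, r was still 0.985 for AT5G52750 with AT5G52760 and 0.889 for AT5G52690 with AT5G52680. Whether the probes of such a pair also bind each other's RNA was not tested, so the values of each pair are not taken as separate measurements.

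Genes of metal biology outside the stretch could hardly be set beside the members. The family list was drawn by gene name, and whether the other genes of the stretch code for the same domain was not checked. The family as a whole is therefore not described here. Of 18 genes listed for the heavy-metal-domain family outside this stretch only CCS, the copper chaperone of superoxide dismutase, was named. It fell at 6 h by 0.50 in the mutant (adjusted p = 0.000254) and by 0.49 in WT (adjusted p = 0.000366), opposite in direction to AT5G52680 and AT5G52760. Of 36 genes for metal handling 3 were named: CCS, the metallothionein MT1C, which fell by 0.70 in the mutant (adjusted p = 0.000704) and by 0.75 in WT (adjusted p = 0.000357), and MTPA1, a zinc transporter, which lay under 5. Of 21 genes for salicylic acid and defence 1 was named, the transcription factor WRKY53, higher by 2.92 in the mutant (adjusted p = 0.000229) and by 2.60 in WT (adjusted p = 0.000717).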

How the data were processed

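The deposited values are log2 levels, as their range of 2.46 to 14.04 shows, and per the submitters' processing notes the authors used RMA, affy and limma with TAIR9, without versions. RMA corrects background, equalises array distributions and summarises probes, so an array's overall shift is largely removed. The table held 22810 probe sets, of which 64 control probe sets were left out. Names came from the platform's gene table (1 symbol for 13513 probe sets), updated with RefSeq TAIR10.1, which also gave gene order. No coordinates are given, since the builds differ.

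The 8 group means were fitted together over the 24 arrays with limma 3.58.1 in R 4.3.3, with 16 residual and 3.83 prior degrees of freedom, two-sided moderated tests and Benjamini-Hochberg adjustment over 22746 probe sets, called at an adjusted p under 0.05. The fit was tested on simulated data. Intervals are 95% and unadjusted for multiple comparisons. The number of arrays limits the precision.

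The 3 genes and the gene lists were chosen with earlier results of these data known. The plan held tests of all mutant salt, genotype, response and time comparisons. Those held most likely to share arrays and contrast with the choice of genes are given here without one. For AT5G52670 and AT5G52680 a part of the remaining comparisons in the choice is not known. The rule for named genes was: the members, every named neighbour, up to 4 genes of each list and the 5 genes most like each member. Alternatives were a replicate block, 2 scalings, a filter on low values, array weights, a fit of the compared groups alone and leaving out arrays. Another probe set could not be tried, since each gene has 1. Protein and promoter sequences were not analysed here. Deviations of same-numbered arrays from their group means were correlated above 0.1 for all 3 numbers in 2 of 28 pairs of groups, WT control with WT at 6 h (0.148 to 0.405) and WT at 1 h with the mutant at 1 h (0.177 to 0.719). By that measure the numbers pair the arrays there, a pairing that comes from the data and is not stated in the labels. Other pairs of groups fell just short of the cut of 0.1, which decides this. These were WT control with WT at 1 h (0.093 to 0.579) and WT at 1 h with WT at 6 h (0.092 to 0.424). Mutant control with the mutant at 6 h (0.072 to 0.209) was also close. For WT at 6 h the replicate block changed no call on the neighbours above 5 or on the listed genes above 5.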

Additional observations from a re-analysis of the deposited data

Results flagged for a closer look

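The dap spike-in controls, bacterial transcripts used to check labelling and hybridisation, are outside the main measurement. On array 1 of mutant control their 3 probe sets averaged 6.23 (log2), against 3.02 to 3.16 on the other 23 arrays. This is the mutant control array on which all 3 genes were highest, AT5G52680 at 4.16 against 3.90 and 3.99 on the others. Without it the mutant's difference at 6 h was 6.52 for AT5G52760 and 1.41 for AT5G52670. Its part in those levels was not tested otherwise.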

How the results depend on the processing

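For the 9 tested differences of the 3 genes, 120 of 126 values under an alternative kept direction and side of the threshold. The 1 reversal was AT5G52670 in the mutant at 1 h, at -0.095 without array 3 of that group (range -0.095 to 0.99 when 1 array was left out). AT5G52670 in the mutant at 6 h (1.06) passed with array weights (1.35, adjusted p = 0.0198), with only the compared groups in the fit (1.06, 0.0193), without array 1 of mutant control (1.41; range 0.78 to 1.41 with 1 array left out), and, as alternatives chosen after seeing the data, without both control arrays that stood apart (1.41, 0.0331) or without WT arrays 3 (1.06, 0.0439). The adjusted p ranged from 0.0193 to 0.285 for it, from 3.1e-05 to 0.0013 for AT5G52680 at 6 h, and for AT5G52760 from 1.15e-06 to 0.0117 at 1 h and from 2.76e-08 to 0.000154 at 6 h. All 474 untested values of the members moved by less than 1 SD, taken as the largest SD among the groups compared. Direction was not part of that rule, and some of these values changed sign. Mutant minus WT ranged from -0.86 to 0.97 for AT5G52760 in the control and from -0.55 to 0.54 for AT5G52670 at 1 h. AT5G52710 in WT at 6 h turned to 0.10 without array 3 of WT control, alone or together with mutant control array 1 (range -0.58 to 0.10 with 1 array left out). The cause of these changes was not tested.

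A replicate block changed no member's call (AT5G52670 in the mutant at 6 h, 1.06, adjusted p = 0.0719). Over all groups 27 of 84 same-numbered pairs of arrays had deviations correlated above 0.1, and 10 of 24 arrays correlated best with their own number. In none of the comparisons in which a member was tested did all 3 numbers pass 0.1. With the block 161 probe sets, against 134 without it, were called between genotypes at 6 h. That count was 326 with array weights, 3 with the compared groups alone, 64 without WT array 1 at 6 h, and 45, 465 and 40 without mutant array 1, 2 or 3 at 6 h. In the mutant at 1 h the count was 5473, against 8759 with array weights and 3557 with the compared groups alone. Of the calls between genotypes at 6 h 12.7% were higher in the mutant, against 26.1% with arrays centred on their medians.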
